A study of Mus musculus with 8 samples.

Results

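The 10 genes described here encode the machinery that decides whether a cell leaves G1 and starts to copy its DNA: the cyclin-dependent kinase (CDK) inhibitors Cdkn1a (p21), Cdkn1b (p27), Cdkn2c (p18) and Cdkn2d (p19), the D-type cyclins Ccnd2 and Ccnd3, the E-type cyclins Ccne1 and Ccne2, and the kinases Cdk4 and Cdk6. They were taken by symbol, and all 10 were found among the 49490 genes of one deposited table and the 55291 genes of the other. Polyadenylated RNA was sequenced from mouse CD8+ T cells of spleens and lymph nodes in 2 separate experiments with 2 libraries in each of 4 groups. In the first, Trim28-/- cells, labelled as TRIM28 knockout, were set against Trim28fl/fl cells, labelled as wild type, all of them activated in vitro. TRIM28 (KAP1) is a chromatin corepressor best known for silencing transposable elements. In the second, wild-type cells given an antibody against IL-2 were set against untreated wild-type cells, both stimulated in vitro for 3 days with antibodies to CD3 and CD28. The Cre driver, the strain, the age and sex of the mice and the length of the first activation are not given in the sources used here. Nothing says whether the 2 libraries of a group came from separate mice or cultures, so the spread between them may be technical alone. Each p-value rests on that spread, moderated by the spread of all tested genes at a similar level.

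In G1, cyclins D2 and D3 activate CDK4 and CDK6, which phosphorylate the retinoblastoma protein and release E2F transcription factors. E2F factors switch on DNA replication genes and the E-type cyclins, which activate CDK2 at entry into S phase. The INK4 inhibitors p18 and p19 bind CDK4 and CDK6 and keep them from D-type cyclins, whereas the CIP/KIP inhibitors p21 and p27 bind whole cyclin-CDK complexes. In T cells, antigen receptor and CD28 signals induce cyclin D2 and CDK4, and IL-2 is known to promote the breakdown of the p27 protein, a step that RNA sequencing does not measure.

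RefSeq promoter windows (GRCm38.p6, 250 bases before an annotated start to 50 bases after it) were matched for 8 of the 10 genes, in 11 windows. Ccnd2 and Ccne2 were not among them. The upstream 250 bases of each window were searched on both strands for 3 motifs. These were the E-box CACGTG, a word bound by MYC among other factors, the E2F words TTTCCCGC, TTTGGCGC, TTTCGCGC and TTTGCCGC, and the p53 response element in the form of 2 adjacent half-sites. For the p53 element a single mismatch was allowed outside the central bases of the half-sites. Of the stretches upstream of annotated exons, those of the CDK4 and p21 genes are shown, because they held the motif matches that were rarest among all windows. Both genes passed the test in both experiments. Capitals mark the E-box in Cdk4 and the p53 element in Cdkn1a, and both stretches are on the plus strand and read 5′ to 3′.
Cdk4, chr10:127063285-127063533: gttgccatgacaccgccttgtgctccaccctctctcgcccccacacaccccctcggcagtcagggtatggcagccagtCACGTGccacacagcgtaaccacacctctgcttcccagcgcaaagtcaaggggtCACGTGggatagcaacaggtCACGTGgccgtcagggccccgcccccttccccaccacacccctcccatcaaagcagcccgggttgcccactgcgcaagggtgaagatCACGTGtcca
Cdkn1a, chr17:29090729-29090975: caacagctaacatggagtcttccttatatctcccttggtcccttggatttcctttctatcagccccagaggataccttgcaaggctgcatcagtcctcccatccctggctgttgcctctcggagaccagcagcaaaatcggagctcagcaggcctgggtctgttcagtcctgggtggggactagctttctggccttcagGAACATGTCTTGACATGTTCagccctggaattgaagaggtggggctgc

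The Cdk4 stretch of 249 bases held 4 copies of CACGTG, whose first bases lay 171, 117, 97 and 10 bases before the gene's first exon base. One or more copies were present in 6.02% of all 32851 windows, and 4 or more in 7 windows (0.0213%). Among the members, Cdk6 held 1 copy in its window and the other windows held none. The Cdkn1a stretch of 247 bases held a p53 element of 20 bases, which began 48 bases before the first exon base. It used the allowed mismatch, at the first base of its second half-site. With that mismatch allowed, 15 of the 32851 windows (0.0457%) held such an element. A second Cdkn1a window, at chr17:29093519-29093768, held none. None of the 11 windows of the members held an E2F word, against 1.86% of all windows. A match of letters is not a measured binding site, and the absence of one says nothing about binding elsewhere.

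Between 13222831 and 13469789 reads per library were recovered from the values of the knockout experiment, and between 16618750 and 17069569 from those of the IL-2 experiment. Values are read counts normalised within each experiment, so levels were not tested across experiments. Trim28 itself had 415 and 458 normalised reads in Trim28-/- cells, against 4262 and 4323 in Trim28fl/fl cells. In the IL-2 experiment Trim28 had 7926 and 8528 normalised reads in anti-IL-2-treated cells and 5774 and 5920 in untreated cells, a log2 fold change of 0.49 (adjusted p = 1.01e-07). Of the 6 CD8+ T cell markers Cd8a, Cd8b1, Cd3d, Cd3e, Cd3g and Cd2, the summed level was 19104 to 19511 in Trim28-/- and 20413 to 20857 in Trim28fl/fl libraries, and 23535 to 24280 in anti-IL-2-treated and 33746 to 34053 in untreated libraries. Ncr1, a marker of NK cells, was at 0 in every library, and Cd4 reached at most 9.55. The 6 B cell markers Cd79a, Cd79b, Ms4a1, Pax5, Ebf1 and Blnk summed to 20.7 and 27.4 in Trim28-/- and 47.7 and 50.7 in Trim28fl/fl libraries, and to 66.8 and 67.1 in anti-IL-2-treated and 64.4 and 61.8 in untreated libraries. Cd79a (log2 fold change -2.08) and Cd79b (-1.66) were lower in Trim28-/- cells, where Pax5 was at 0. Ms4a1 and Blnk were at 0 in every library of that experiment, Trim28fl/fl included. Ebf1 had 0.20 in the knockout (adjusted p = 0.579) and was lower with anti-IL-2 (-0.81). The 7 myeloid markers summed to 149.7 to 158 in Trim28-/- and 252 to 296 in Trim28fl/fl libraries, and to 94.9 to 102 in anti-IL-2-treated and 349 to 366 in untreated libraries. Most of this was Cd68, lower by log2 fold changes of -0.76 and -2.25, and the other 6 markers summed to 24.6 and 30.4 in Trim28-/- and 29.4 and 88.2 in Trim28fl/fl libraries, and to 29.6 and 28.8 in treated and 22.9 and 26.8 in untreated libraries. The 4 CD4 T cell markers summed to 153 to 170 in Trim28-/- and 504 to 524 in Trim28fl/fl libraries, and to 557 to 586 in anti-IL-2-treated and 496 to 570 in untreated libraries. They did not move together: Cd40lg was lower in Trim28-/- cells (-2.95) and higher with anti-IL-2 (0.49), Foxp3 was higher in Trim28-/- cells (3.09) and lower with anti-IL-2 (-2.45), and Zbtb7b was lower in both (-1.27 and -0.51). The 5 NK cell markers summed to 245 to 275 in Trim28-/- and 183 to 209 in Trim28fl/fl libraries, and to 166 to 173 in anti-IL-2-treated and 398 to 406 in untreated libraries. Nearly all of this was Eomes, higher in Trim28-/- cells (0.60) and lower with anti-IL-2 (-1.14), whereas Klre1 was lower in both (-2.76 and -2.97). Of 5 erythroid and stromal markers, the sum was 571 to 603 in Trim28-/- and 294 to 431 in Trim28fl/fl libraries, and 1070 to 1112 in anti-IL-2-treated and 537 to 564 in untreated libraries, and Pecam1 led it, higher in both (0.93 and 1.03). The part of these shifts in the results on the members was not tested. In bulk RNA, fewer cells of a type and less RNA per cell cannot be told apart.

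**Figure D1:**
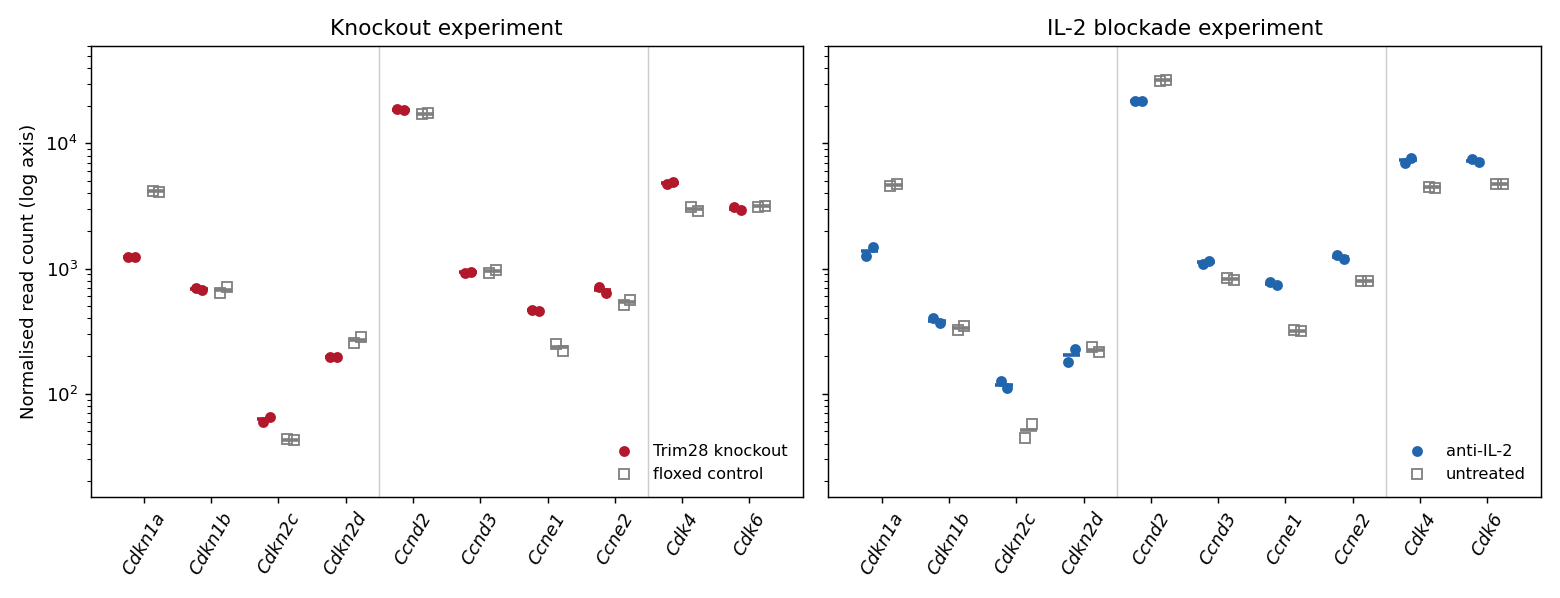
Normalised read count (log axis) of each of the 10 genes in every library, with the Trim28 experiment and the IL-2 experiment in separate panels and the bar at the mean of 2 libraries. Cdkn1a lies at 1247 and 1245 in the Trim28-/- libraries and at 4164 and 4105.5 in the Trim28fl/fl libraries, and at 1270 and 1482 with anti-IL-2 against 4606 and 4694 without it.

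Loss of Trim28 went with less Cdkn1a and Cdkn2d RNA and more Ccne1, Cdk4, Cdkn2c, Ccne2 and Ccnd2 RNA. Of the 10 genes, 5 were higher and 2 lower by limma with Benjamini-Hochberg adjustment over all genes tested, a share to be read against the 61% of all 15415 tested genes that were called, 32.9% higher and 28.2% lower. The 2 groups did not overlap for 8 of the 10 genes, as for 82.3% of all tested genes. The median log2 fold change was 0.07 over the members and 0.03 over all tested genes. Anti-IL-2 treatment went with less Cdkn1a and Ccnd2 RNA and more RNA of Ccne1, Cdkn2c, Cdk4, Ccne2, Cdk6 and Ccnd3. There 6 of the 10 were higher and 2 lower, where 60.3% of all 13978 tested genes were called, 31.4% higher and 28.9% lower. Groups did not overlap for 9 of the 10 genes, as for 79.3% of all tested genes. The median was 0.53 over the members and 0.02 over all tested genes. In the authors' deposited tables, 4 members were higher and 2 lower in Trim28-/- cells, where 38.6% of the 16020 genes with an adjusted p were called (21.9% higher and 16.7% lower). With anti-IL-2, 6 were higher and 2 lower in the authors' deposited table, where 37.2% of 16348 genes were called (19.5% higher and 17.7% lower).

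Cdkn1a encodes p21, an inhibitor of cyclin-CDK complexes and a classic target of p53 (chromosome 17, 29090976 to 29100727, GRCm38, identifier ENSMUSG00000023067.14). It had 1247 and 1245 normalised reads in Trim28-/- cells, against 4164 and 4105.5 in Trim28fl/fl cells. Every Trim28-/- library lay far below every Trim28fl/fl library, 3.32-fold on the means, at -1.73 on the log2 scale (SE 0.03, adjusted p = 2.46e-06). With anti-IL-2 it had 1270 and 1482 normalised reads, against 4606 and 4694 in untreated cells. The groups again did not overlap, and the level was 3.38-fold lower with anti-IL-2 (log2 fold change -1.76, SE 0.06, adjusted p = 1.89e-14). Its exons share 273 bases with AC167363.2 on the opposite strand, which is not analysed here. The call held under each of the 15 alternatives tried for the knockout and the 14 tried for anti-IL-2. Trp53, which encodes p53 and was added here after its values were seen, was higher in both experiments. It averaged 2999 ± 85.6 normalised reads in Trim28-/- and 2431 ± 49.0 in Trim28fl/fl cells, and 4005 ± 311 in anti-IL-2-treated and 3188 ± 37.3 in untreated cells (SD, n = 2 each).

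Cdkn1b encodes p27, the CIP/KIP inhibitor associated with resting T cells (chromosome 6, 134920401 to 134925513). In Trim28-/- cells it had 693 and 680 normalised reads, against 639 and 709 in Trim28fl/fl cells. The Trim28-/- values fell between the Trim28fl/fl values, and the log2 fold change of 0.03 (95% interval -0.12 to 0.18) did not pass the test (adjusted p = 0.69). Anti-IL-2-treated cells had 401 and 364 normalised reads, against 325 and 349 in untreated cells. Both treated libraries were above both untreated ones, but the log2 fold change of 0.18 (95% interval -0.01 to 0.37) missed the threshold (adjusted p = 0.0898). Without anti-IL-2 library B it was 0.25 with an adjusted p of 0.0289, within a range of 0.0289 to 0.402 over the 14 alternatives.

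Cdkn2c encodes p18, an INK4 inhibitor of CDK4 and CDK6 (chromosome 4, 109660876 to 109667189), and was the member with the fewest reads. It had 60.1 and 65.7 normalised reads in Trim28-/- cells, against 43.6 and 42.6 in Trim28fl/fl cells, which stand for 61 and 67 against 43 and 42 recovered reads. The groups did not overlap and the log2 fold change was 0.53 (SE 0.12, adjusted p = 0.0101). That call was lost without Trim28-/- library 2 (0.0578), Trim28fl/fl library 1 (0.0506) or Trim28fl/fl library 2 (0.0573), and with DESeq2 (0.346), the adjusted p ranging from 0.00775 to 0.346 over the alternatives. Anti-IL-2-treated cells had 127 and 110.3 normalised reads, against 44.7 and 57.7 in untreated cells. Here the treated libraries were 2.32-fold higher on the means, at 1.20 on the log2 scale (SE 0.18, adjusted p = 8.18e-06).

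Cdkn2d encodes p19, the other INK4 inhibitor of the set (chromosome 9, 21288410 to 21291407). It had 196 and 198 normalised reads in Trim28-/- cells, against 254 and 285 in Trim28fl/fl cells. The Trim28-/- libraries were lower without overlap, at -0.45 on the log2 scale (SE 0.08, adjusted p = 0.00357). Leaving out Trim28-/- library 1 or 2 gave adjusted p-values of 0.0767 and 0.0725, within a range of 0.00143 to 0.0767. In the IL-2 experiment it had 180 and 227 normalised reads in treated cells, against 235 and 214 in untreated cells. These groups overlapped, and the log2 fold change of -0.15 (95% interval -0.40 to 0.11) did not pass the test (adjusted p = 0.306). Without anti-IL-2 library B it was -0.31 (adjusted p = 0.0375, range 0.0375 to 0.907).

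Ccnd2 encodes cyclin D2, the member with the highest mean level per length in every group (chromosome 6, 127125162 to 127152193). In Trim28-/- cells it had 18814 and 18380 normalised reads, against 17037 and 17390 in Trim28fl/fl cells. The groups did not overlap but lay close together, 1.08-fold apart on the means, at 0.11 on the log2 scale (SE 0.02, adjusted p = 0.00891). Leaving out any 1 of the 4 libraries ended this call, with adjusted p-values of 0.0934 and 0.0598 without Trim28-/- library 1 and 2 and 0.0925 and 0.052 without Trim28fl/fl library 1 and 2, and with upper-quartile scaling the log2 fold change was 0.03 (adjusted p = 0.301, range 0.0064 to 0.301). Anti-IL-2-treated cells had 21702 and 21752 normalised reads, against 31617 and 32129 in untreated cells. The treated libraries were well apart from and below the untreated ones, at -0.55 on the log2 scale (SE 0.05, adjusted p = 9.89e-09).

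Ccnd3 encodes cyclin D3, a partner of CDK6 in lymphocytes (chromosome 17, 47505051 to 47599691). It had 926 and 943 normalised reads in Trim28-/- cells, against 929 and 977 in Trim28fl/fl cells. These groups overlapped, and the log2 fold change of -0.03 (95% interval -0.13 to 0.08) did not pass the test (adjusted p = 0.585). With anti-IL-2 it had 1098 and 1145 normalised reads, against 836 and 811 in untreated cells. The treated libraries were higher without overlap, by 0.45 on the log2 scale (SE 0.06, adjusted p = 6.23e-06). Its exons share 361 bases with Bysl on the opposite strand, and no strand setting is given in the sources used here, so reads there cannot be assigned to one gene. Bysl, named for this overlap after its values were seen, had log2 fold changes of 0.39 in Trim28-/- cells and 0.00 with anti-IL-2.

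Ccne1 encodes cyclin E1, an activator of CDK2 at the entry into S phase (chromosome 7, 38097984 to 38107534). It had 465 and 462 normalised reads in Trim28-/- cells, against 251 and 221 in Trim28fl/fl cells. The Trim28-/- libraries were 1.96-fold higher on the means without overlap (log2 fold change 0.97, SE 0.07, adjusted p = 0.000146). With anti-IL-2 it had 777 and 736 normalised reads, against 322 and 317 in untreated cells. This was a 2.37-fold higher level (log2 fold change 1.24, SE 0.08, adjusted p = 7.1e-11). Both calls held under every alternative tried.

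Ccne2 encodes cyclin E2, the second E-type cyclin (chromosome 4, 11191351 to 11204779). In Trim28-/- cells it had 716 and 641 normalised reads, against 515 and 558 in Trim28fl/fl cells. The groups did not overlap and the log2 fold change was 0.34 (SE 0.07, adjusted p = 0.00773). The call was lost without Trim28-/- library 1 (0.0958) or Trim28fl/fl library 1 (0.0713), without the filter on low values (0.077) and with DESeq2 (0.0558), over a range of 0.000769 to 0.0958. With anti-IL-2 it had 1283 and 1182 normalised reads, against 792 and 793 in untreated cells. The treated libraries were higher without overlap, by 0.64 on the log2 scale (SE 0.06, adjusted p = 8.06e-08). Its exons share 609 bases with Ints8 on the opposite strand. Ints8 had log2 fold changes of 0.09 in Trim28-/- cells (adjusted p = 0.169) and 0.15 with anti-IL-2 (adjusted p = 0.0319). The latter call was lost under 6 of 14 alternatives, among them leaving out either untreated library and DESeq2.

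Cdk4 encodes the main partner of the D-type cyclins (chromosome 10, 127063534 to 127067920), and its upstream stretch with 4 E-boxes is printed above. It had 4776 and 4913 normalised reads in Trim28-/- cells, against 3085 and 2899 in Trim28fl/fl cells. The Trim28-/- libraries were 1.62-fold higher on the means without overlap (log2 fold change 0.70, SE 0.04, adjusted p = 5.14e-05). With anti-IL-2 it had 7013 and 7674 normalised reads, against 4488 and 4432 in untreated cells. This was 1.65-fold higher (log2 fold change 0.72, SE 0.05, adjusted p = 7.27e-10), and both calls held under every alternative tried. Cdk4 shares 641 exon bases with Tspan31 on the opposite strand, whose log2 fold changes were -0.12 in Trim28-/- cells (adjusted p = 0.149) and -0.14 with anti-IL-2 (adjusted p = 0.0816, and 0.0352 without anti-IL-2 library B, range 0.0194 to 0.4).

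Cdk6 encodes the second D-type cyclin kinase, prominent in lymphoid cells (chromosome 5, 3341485 to 3531008). In Trim28-/- cells it had 3093 and 2924 normalised reads, against 3111 and 3169 in Trim28fl/fl cells. Both Trim28-/- libraries were below both Trim28fl/fl ones, with little distance between the nearest pair, and the log2 fold change of -0.06 (95% interval -0.15 to 0.03) did not pass the test (adjusted p = 0.187). With upper-quartile scaling it was -0.14 and passed (adjusted p = 0.0187, range 0.0187 to 0.562). With anti-IL-2 it had 7493 and 7052 normalised reads, against 4777 and 4740 in untreated cells. There the treated libraries were 1.53-fold higher on the means (log2 fold change 0.61, SE 0.05, adjusted p = 3.63e-09). The antisense gene Gm17590, which shares 368 exon bases with Cdk6, reached at most 20.3 normalised reads, and 9330179D12Rik, which shares 368 with Ccnd2, at most 13.5.

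The 2 effects were compared in 1 limma fit of all 8 libraries, as the knockout effect minus the anti-IL-2 effect. Of the 12428 genes tested in both, 41.7% differed, and among the members 5 of 10 did. The log2 difference was 0.66 for Ccnd2 (adjusted p = 3.19e-07), the 1 member called higher in Trim28-/- cells and lower with anti-IL-2. It was -0.67 for Cdk6 (adjusted p = 2.13e-06) and -0.47 for Ccnd3 (adjusted p = 0.000211), which were called higher with anti-IL-2 and not called in the knockout. For Cdkn2c and Ccne2, higher in both experiments, it was -0.67 (adjusted p = 0.0389) and -0.30 (adjusted p = 0.0241). The Cdkn2c difference missed the threshold under 7 of 14 alternatives, with adjusted p between 0.0187 and 0.13, namely without either Trim28-/- library, either Trim28fl/fl library, anti-IL-2 library A or untreated library 1 and without the filter. That of Ccne2 missed it under 6, with adjusted p between 0.0111 and 0.109, namely without Trim28-/- library 2, Trim28fl/fl library 2, anti-IL-2 library A or either untreated library and without the filter.

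For the other members the test did not find a difference between the effects, which does not show that they are alike. The difference for Cdkn1a was 0.03 with a 95% interval of -0.15 to 0.21 (adjusted p = 0.793). It was 0.14 without anti-IL-2 library B and then passed the test (adjusted p = 0.0349, range 0.0349 to 0.947). For Cdk4 it was -0.02 with an interval of -0.17 to 0.12 (adjusted p = 0.815). The Ccne1 difference of -0.26 (interval -0.49 to -0.04) missed the threshold (adjusted p = 0.06) and passed it with TMM scaling (0.0438), with edgeR and TMM (0.0412) and without Trim28fl/fl library 2 (0.0228), over a range of 0.0228 to 0.236. For Cdkn1b it was -0.15 (adjusted p = 0.268) and for Cdkn2d -0.30 (adjusted p = 0.156), and the Cdkn2d difference passed without anti-IL-2 library A (0.0237, range 0.0237 to 0.477). In all, 4 members were higher and 1 lower in both experiments and 1 was called in opposite directions, where 40.7% of the genes tested in both were called in the same direction and 5.59% in opposite directions.

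**Figure D2:**
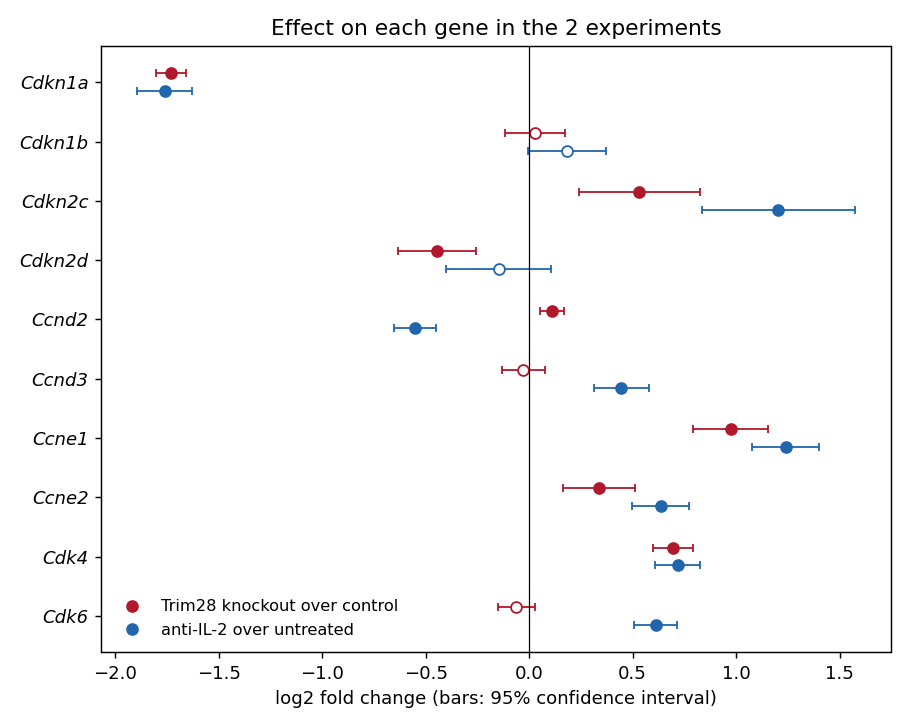
Log2 fold change of each member with its 95% interval, for Trim28-/- over Trim28fl/fl cells and for anti-IL-2-treated over untreated cells, filled where the gene passed the test and open where it did not. Cdkn1a lies at -1.73 and -1.76 and Cdk4 at 0.70 and 0.72, while Ccnd2 lies at 0.11 and -0.55 and Cdk6 at -0.06 and 0.61.

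Dividing the normalised reads by the length of each gene's merged annotated exons set levels side by side within a library. The transcripts in use were not determined, and merged exons can be longer than any of them. Ranks and ratios between genes depend on these lengths, such as 8775 bases for Ccnd3 and 3249 for Cdk4. In Trim28-/- cells the level per kb ran from Ccnd2 at 1976 ± 32.6 through Cdk4 at 1491 ± 29.9, Cdkn1a at 351 ± 0.34, Cdk6 at 215 ± 8.54, Ccne2 at 194 ± 15.1, Ccne1 at 174 ± 0.82, Cdkn1b at 151 ± 2.01, Cdkn2d at 125 ± 0.92 and Ccnd3 at 106 ± 1.40 to Cdkn2c at 23.4 ± 1.48 normalised reads per kb (SD, n = 2). No neighbours in this order overlapped. In Trim28fl/fl cells Cdkn1a was second at 1164 ± 11.6 per kb, above Cdk4 at 921 ± 40.5, and Ccne1 was ninth at 88.6 ± 7.85, below Ccnd3. Cdkn1a was thus the third of the 10 genes by level per kb without Trim28 and the second with it. Among Trim28fl/fl neighbours, only Ccne2 at 153 ± 8.55 and Cdkn1b at 148 ± 10.8 per kb overlapped.

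Under anti-IL-2, Ccnd2 at 2309 ± 3.77 and Cdk4 at 2260 ± 144 normalised reads per kb overlapped at the top, followed by Cdk6 at 520 ± 22.3. Cdkn1a came next at 387 ± 42.2 per kb and overlapped with Ccne2 at 353 ± 20.3, and Cdkn2d at 129.5 ± 21.1 overlapped with Ccnd3 at 128 ± 3.81. In untreated cells Ccnd2 at 3388 ± 38.5 per kb stood well above Cdk4 at 1373 ± 12.2 and Cdkn1a at 1309 ± 17.5, and Cdk6 was at 340.1 ± 1.87 (SD, n = 2). Cdkn2c was last of the 10 in every group, at 44.2 ± 4.39 per kb with anti-IL-2 and 19.1 ± 3.42 without.

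Ratios of these per kb levels within a library put the members' changes in one number, and are given as descriptions. The 4 inhibitors summed to 0.384 and 0.378 of the summed Cdk4 and Cdk6 level in Trim28-/- cells, against 1.27 and 1.35 in Trim28fl/fl cells. With anti-IL-2 this ratio was 0.225 and 0.238, against 0.89 and 0.913 in untreated cells. At these exon lengths, the inhibitor sum was below the kinase sum in every library of the Trim28-/-, treated and untreated groups. It was above the kinase sum in both Trim28fl/fl libraries. Cdkn1a made up 54.0% and 53.9% of the inhibitor sum in Trim28-/- cells, against 78.7% and 76.6% in Trim28fl/fl cells. Its share was 58.8% and 61.1% with anti-IL-2, against 84.5% and 84.9% without.

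The 2 kinases and the 2 D-type cyclins were balanced differently in the 2 experiments. Cdk4 over Cdk6 was 6.65 and 7.23 in Trim28-/- cells, against 4.27 and 3.94 in Trim28fl/fl cells, whereas it was 4.03 and 4.69 with anti-IL-2 and 4.05 and 4.03 in untreated cells, where the groups overlapped. Ccnd2 over Ccnd3 was 19.0 and 18.2 in Trim28-/- cells, against 17.1 and 16.6 in Trim28fl/fl cells. It was 18.4 and 17.7 with anti-IL-2, against 35.3 and 37.0 in untreated cells. For the E-type cyclins, Ccne2 over Ccne1 was 1.17 and 1.06 in Trim28-/- and 1.57 and 1.92 in Trim28fl/fl cells, and 1.26 and 1.22 in treated and 1.87 and 1.90 in untreated cells. Cyclin E1 thus approached cyclin E2 in level per kb in the Trim28-/- and in the treated libraries.

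**Figure D3:**
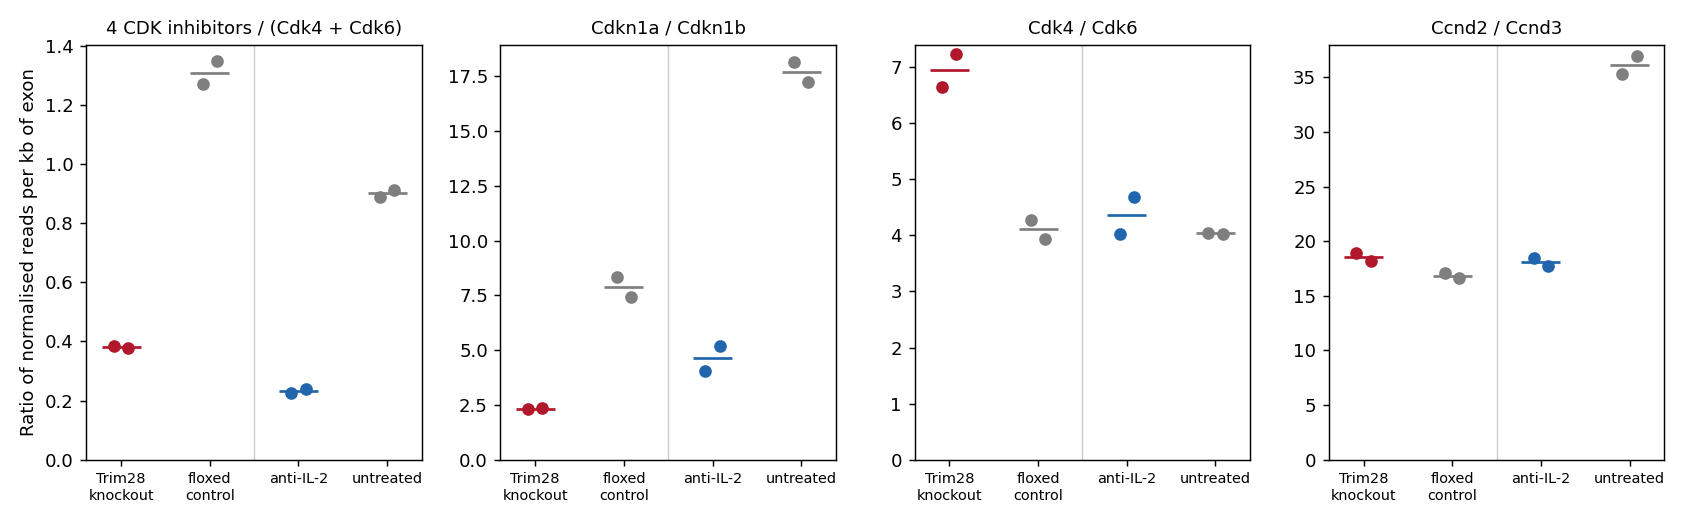
Ratios of normalised reads per kb within each library, 1 point per library, with Trim28-/- left of Trim28fl/fl and anti-IL-2 left of untreated. The ratio of inhibitors to kinases is 0.384 and 0.378 in Trim28-/- against 1.27 and 1.35 in Trim28fl/fl libraries, and 0.225 and 0.238 with anti-IL-2 against 0.89 and 0.913 without.

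The remaining genes of the pathway were described by lists of known function. Among the other CDK inhibitors, Cdkn2a and Cdkn2b did not pass the filter in either table, the highest value being 10.8. Cdkn1c, which encodes p57, had 19.7 and 21.6 normalised reads in Trim28-/- cells, against 28.4 and 40.5 in Trim28fl/fl cells. It was lower in Trim28-/- cells (log2 fold change -0.69, adjusted p = 0.0331) but lost this call under 6 of 14 alternatives. The call was lost without either Trim28-/- library or Trim28fl/fl library 2. Cdkn1c also lost it without the filter (adjusted p = 0.125), in the fit of all 8 libraries (0.122) and with DESeq2 (0.313). Its value with anti-IL-2 was -0.76 (adjusted p = 0.142), and without anti-IL-2 library B it was -1.32 (adjusted p = 0.0152, range 0.0152 to 0.701). Cdkn3, a phosphatase that acts on CDK2, was lower in both experiments (-0.57 and -0.72). Its knockout call was lost with DESeq2 (-0.61, adjusted p = 0.0895). By limma, 2 of 2 tested were thus lower in the knockout and 1 of 2 with anti-IL-2. Of all tested genes, 28.2% and 28.9% were called lower.

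Of 9 other G1 cyclin, CDK and activator genes, 4 were higher and 2 lower in Trim28-/- cells, and 4 were higher with anti-IL-2, which is to be read against the 61% and 60.3% of all tested genes called. Cdk2, the partner of the E-type cyclins, was higher in both, by 0.37 and 0.77, and so was Cdc25a, the phosphatase that activates CDK2, by 0.46 and 0.51. Ccnd1, the third D-type cyclin, had 71.9 and 82.3 normalised reads in Trim28-/- cells, against 33.5 and 22.3 in Trim28fl/fl cells, a log2 fold change of 1.46 (adjusted p = 0.00183). Without Trim28-/- library 1 or 2 the adjusted p was 0.0632 or 0.0759, over a range of 7.48e-05 to 0.0759, and its change with anti-IL-2 was -0.20 (adjusted p = 0.466). Cdc37, a chaperone of CDK4, was higher in the knockout (0.28) and had 0.11 with anti-IL-2, which passed only without anti-IL-2 library A (0.17, adjusted p = 0.000129, range 0.000129 to 0.397). Of the CDK-activating kinase, Ccnh was higher with anti-IL-2 (0.51) and had -0.02 in the knockout, and Cdk7 was higher with anti-IL-2 (0.15). Mnat1, which assembles that kinase, was lower in the knockout (-0.39) and had -0.03 with anti-IL-2. Ccnc, a cyclin of the Mediator complex, was lower in the knockout (-0.30) and had -0.12 with anti-IL-2, and Ccnk, the partner of CDK12, had -0.06 and -0.14, neither passing the test. Some of these calls changed with the method or when a single library was left out, a fit that leaves 1 library in a group. That of Mnat1 was lost without either Trim28-/- library, and that of Ccnc without Trim28-/- library 2, either Trim28fl/fl library or the filter. That of Cdk7 was lost under 7 of 14 alternatives. These were leaving out either untreated library or the filter, upper-quartile scaling, both edgeR fits and DESeq2. Ccnk was called lower with anti-IL-2 under 4 of 14 alternatives, and had -0.25 without anti-IL-2 library B.

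Among 13 pocket protein and E2F genes, 8 were higher and 1 lower in Trim28-/- cells, and 10 were higher with anti-IL-2, with list medians of 0.37 and 0.47. Of all tested genes, 61% were called in the knockout (32.9% higher) and 60.3% with anti-IL-2 (31.4% higher). Without Trim28fl/fl library 1 or 2 the number higher in the knockout was 5. The repressor E2f8 was higher in both, by 1.01 and 1.09, as were Tfdp1, the DNA-binding partner of E2F factors (0.68 and 0.86), the repressor E2f6 (0.94 and 0.58) and the pocket protein gene Rbl1 (0.49 and 0.76). E2f7 was higher by 0.64 (adjusted p = 0.0273) and 1.53, and E2f1 by 0.27 (adjusted p = 0.0107) and 0.55. In the knockout both calls were lost without Trim28-/- library 2, either Trim28fl/fl library or the filter, and with DESeq2. Rb1, the retinoblastoma gene, was lower in Trim28-/- cells, at 707 and 740 normalised reads against 903 and 950 in Trim28fl/fl cells (-0.36, adjusted p = 0.00124). With anti-IL-2 it was higher, at 1484 and 1364 against 1258 and 1244 in untreated cells (0.19, adjusted p = 0.0136). That call was lost under 5 of 14 alternatives, namely without either untreated library or the filter, with upper-quartile scaling and with DESeq2. E2f4 was higher in the knockout by 0.40 and had -0.05 under anti-IL-2 (adjusted p = 0.524), where it was lower without library B (-0.14, adjusted p = 0.0007, range 0.0007 to 0.748). E2f5 was higher in the knockout by 0.37, a call lost without either Trim28fl/fl library or the filter and with DESeq2, and had -0.03 under anti-IL-2. E2f2 and Tfdp2 were higher with anti-IL-2 (0.47 and 0.40) and had -0.06 and -0.10 in the knockout, and E2f3 had 0.10 and 0.03, neither passing the test. Rbl2, the third pocket protein gene, had 0.04 in the knockout and was higher with anti-IL-2 (0.21, adjusted p = 0.0454). That call was lost under 8 of 14 alternatives. These were leaving out anti-IL-2 library A, either untreated library or the filter, upper-quartile scaling, both edgeR fits and DESeq2.

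Of the S-phase genes, 19 of 20 rose in Trim28-/- cells and 20 of 20 rose with anti-IL-2, with median log2 fold changes of 0.60 and 1.07. Over all tested genes, 32.9% were called higher in the knockout and 31.4% with anti-IL-2. Tyms, which makes thymidylate, had 718 and 765 normalised reads in Trim28-/- cells, against 301 and 307 in Trim28fl/fl cells, and 1361 and 1450 with anti-IL-2, against 440 and 409 without. The ribonucleotide reductase gene Rrm2 was higher by 1.05 and 1.37, and so were Mcm2 (1.14 and 1.32) and Mcm7 (0.78 and 1.07) of the replicative helicase, the polymerase gene Pola1 (0.49 and 1.64) and the licensing inhibitor Gmnn (0.65 and 1.32). Of 15 G2 and mitosis genes, 11 were higher and 1 lower in Trim28-/- cells and 13 were higher with anti-IL-2. In either direction, 61% and 60.3% of all tested genes were called. Cdc25b, a phosphatase that activates CDK1, had 1880 and 1758 normalised reads in Trim28-/- cells, against 331 and 331 in Trim28fl/fl cells, a log2 fold change of 2.45, and rose by 0.47 with anti-IL-2. The mitotic genes Ccnf (1.66 and 1.14), Plk1 (1.38 and 0.91) and Aurkb (0.92 and 1.00) rose in both, and so did Ccna2 (0.76 and 1.14). Top2a rose by 1.00 with anti-IL-2 and had 0.01 in the knockout (adjusted p = 0.728), and Bub1 rose by 0.81 with anti-IL-2 and had 0.01 in the knockout (adjusted p = 0.924). The 1 gene lower in the knockout was Mki67, a proliferation marker (-0.12, adjusted p = 0.029), which rose by 0.63 with anti-IL-2. Its knockout call was lost without any 1 of the 4 libraries, and Mki67 and Bub1 were named after their values were seen.

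Of 10 genes for the turnover of G1 regulators, 6 were higher and 2 lower in Trim28-/- cells, and 7 were higher and 1 lower with anti-IL-2, beside 61% and 60.3% of all tested genes called. Skp2 and Cks1b, which direct the breakdown of p27, were higher by 0.59 and 0.46 in the knockout and by 0.60 and 0.69 with anti-IL-2. The knockout call of Cks1b was lost without Trim28-/- library 1 (0.0566) or 2 (0.0675), over a range of 4.65e-05 to 0.0675. Fzr1, an activator of the anaphase-promoting complex, was higher in both (0.50 and 0.36), and its anti-IL-2 call was lost without the filter (adjusted p = 0.07). Rnf123 (0.20 and 0.46) and Ubac1 (0.47 and 0.65), subunits of the KPC ligase that acts on p27, were higher in both as well. The knockout call of Rnf123 was lost without any 1 of the 4 libraries, without the filter, with upper-quartile scaling and with DESeq2.

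Among 13 regulators of quiescence and growth, most of which restrain division, 11 were lower in Trim28-/- cells, and 10 were lower with anti-IL-2, with medians of -0.44 and -0.56. Over all tested genes, 28.2% were called lower in the knockout and 28.9% with anti-IL-2. Btg1, an antiproliferative gene, had 6183 and 6321 normalised reads in Trim28-/- cells, against 10549.5 and 10645 in Trim28fl/fl cells, and 3556 and 3596 with anti-IL-2, against 9648 and 9461 without. Klf4 had log2 fold changes of -0.89 and -1.41 and was lower in both, and Tob1 (-0.73 and -0.46) and Foxo1 (-0.42 and -0.92) were lower in both as well. Mycn, which promotes growth, was lower as well (-1.36 and -1.79) from at most 27.4 normalised reads, and its knockout call was lost without Trim28-/- library 1 (0.0519) and with DESeq2 (0.1), over a range of 0.00266 to 0.1. Its relative Myc, a known activator of Cdk4 that was singled out after its values were seen, had -0.02 in the knockout (adjusted p = 0.575) and was lower with anti-IL-2 (-0.80, adjusted p = 1.24e-10). With upper-quartile scaling the knockout value of Myc was -0.10 and passed the test (adjusted p = 0.0209).

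The p53 targets other than Cdkn1a were mixed. Of 15 tested, 2 were higher and 10 lower in Trim28-/- cells, whereas 6 were higher and 9 lower with anti-IL-2, with medians of -0.38 and -0.25. Over all tested genes, 61% were called in the knockout (28.2% lower) and 60.3% with anti-IL-2 (28.9% lower). Plk2 had 751 and 759 normalised reads in Trim28-/- cells, against 2666 and 2736 in Trim28fl/fl cells, and 1441 and 1425 with anti-IL-2, against 4820 and 4825 without. Its log2 fold changes of -1.84 and -1.75 lay near those of Cdkn1a. Fas, a death receptor, was lower in both (-0.71 and -0.77), and so was Trp53inp1 (-0.70 and -1.80). The cell-death gene Pmaip1 was lower in both (-1.03 and -0.25). Its anti-IL-2 call was lost without anti-IL-2 library B, either untreated library or the filter, and with DESeq2. Ccng1 was lower in the knockout (-0.83) and higher with anti-IL-2 (0.33). Bbc3 and Phlda3 were higher with anti-IL-2 by 1.10 and 1.40, with -0.10 (adjusted p = 0.192) and -0.38 (adjusted p = 0.0306) in the knockout. That call of Phlda3 was lost without Trim28-/- library 2, either Trim28fl/fl library or the filter, and with DESeq2.

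Small counts within these lists changed when 1 library was left out, a fit that leaves 1 library in a group. In the knockout such fits also called fewer of all tested genes, so a lost call need not point to a particular library. In the knockout, leaving out 1 library gave 1 to 2 lower among other inhibitors, 0 to 1 lower among the other G1 genes, 0 to 1 lower among turnover genes, 0 lower among mitosis genes and 0 to 1 higher among p53 targets. With anti-IL-2 it gave 1 to 2 lower among other inhibitors and among turnover genes, and 0 to 1 lower among the other G1 genes and among E2F genes. The counts of S-phase genes stayed at 16 to 19 higher in the knockout and at 20 with anti-IL-2.

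**Figure D4:**
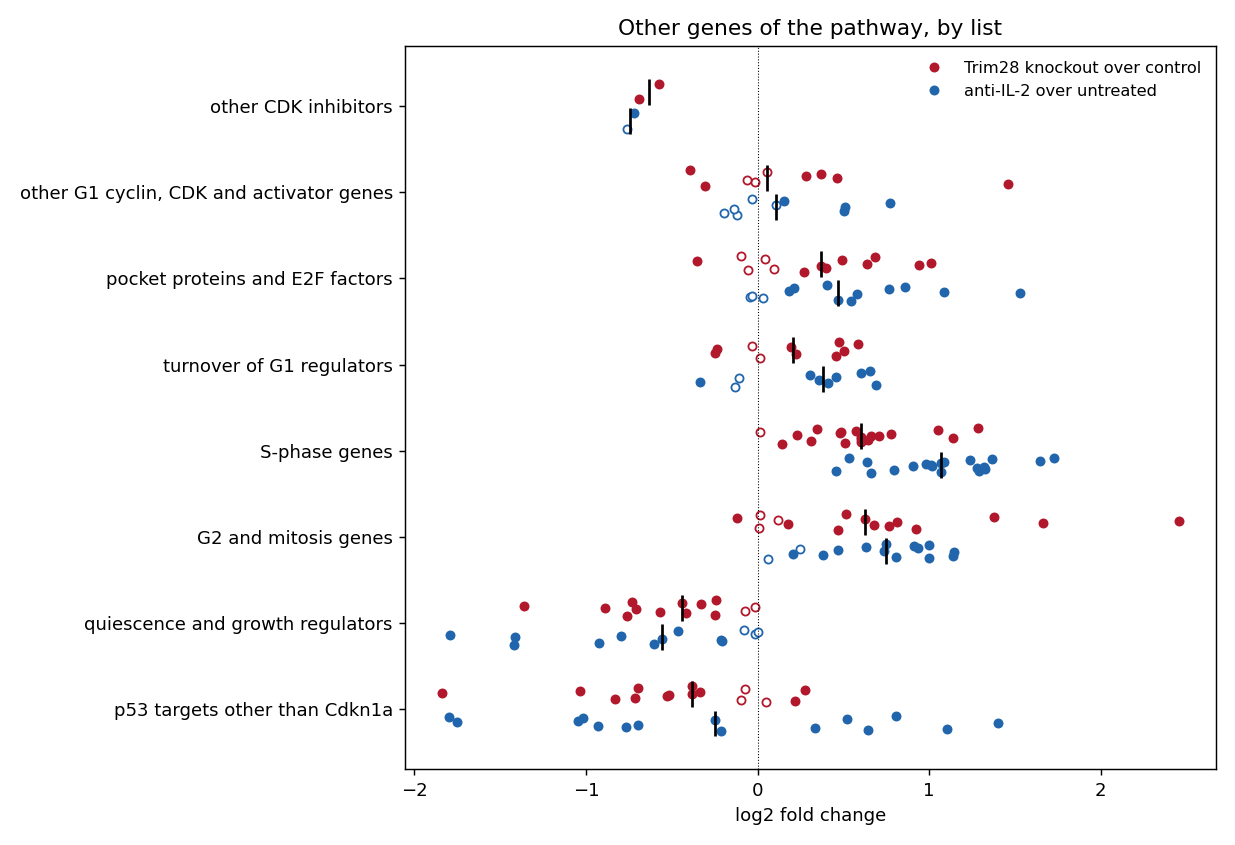
Log2 fold change of each tested gene of the 8 lists, 1 point per gene, for the knockout and for anti-IL-2, filled where called and open where not. S-phase genes lie above 0, with medians of 0.60 and 1.07, and quiescence genes mostly below it, with medians of -0.44 and -0.56.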

How the data were processed

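Polyadenylated RNA of 8 libraries was analysed. Per the submitters' processing notes, the tools were HISAT2 2.2.1, Trim Galore 0.4.4, DESeq2 and StringTie 2.1.4, with the mm10 genome. The counter, its strand setting and the annotation are not given in the sources used here. The deposited values per library are a normalised signal, gene read counts divided by a size factor within each experiment. The authors' deposited log2 fold changes (sign: reference over treated) and their deposited p-values were used only where named. Whole reads were recovered by undoing the size factors and came out whole for 100% of values (tolerance 0.001 reads, relative for large values).

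The test was limma 3.58.1 (R 4.3.3), a moderated test with a mean-variance trend on log2 of the value plus a pseudocount of 1, which shrinks changes of low genes. The filter kept genes reaching 10 in 2 or more libraries, and Benjamini-Hochberg adjusted p under 0.05 over all tested genes was a call. The experiments had a fit each, and their effects were contrasted in a joint fit of the 8 libraries. Fold changes without "log2" are ratios of means, and 95% intervals are from limma. Alternatives were edgeR 4.0.16 (quasi-likelihood, which called 4548 genes higher and 4571 lower in the knockout and 4258 and 4151 with anti-IL-2, on the recovered reads), DESeq2 1.42.0, other scalings, filters and pseudocounts, and leaving out each library. The procedure was tested on simulated data. The anti-IL-2 columns carry no number, so these libraries are called A and B. No pair of libraries was a duplicate: replicates differed by more than counting noise (chi-square per gene 1.32 to 3.87).

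The members and lists were chosen with earlier results of these data known. All members were named, with every gene of the lists of other inhibitors, other G1 genes and pocket and E2F genes, and, of each other list, the 4 called genes with the largest change in each comparison. Bysl, Ints8, Tspan31 and Trp53 were added after their values were seen, as were Myc, Mki67, Bub1 and, for genes named through 1 comparison, their values in the other. Positions and exon lengths are those of GENCODE M21 (GRCm38). Promoter windows are from RefSeq (GRCm38.p6). One further marker is not reported here.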

Additional observations from a re-analysis of the deposited data

Results flagged for a closer look

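The effect of Trim28 loss and that of anti-IL-2 differed for 5 members, by a test of the difference itself in 1 limma fit of all 8 libraries with Benjamini-Hochberg adjustment over 12428 genes, of which 41.7% differed. The knockout effect minus the anti-IL-2 effect, on the log2 scale, was -0.67 for Cdkn2c, 0.66 for Ccnd2, -0.47 for Ccnd3, -0.30 for Ccne2 and -0.67 for Cdk6. Ccnd2 was the member with opposite calls, 0.11 in Trim28-/- over Trim28fl/fl cells and -0.55 in anti-IL-2-treated over untreated cells. Its knockout call was lost when any single library of that experiment was left out. With upper-quartile scaling its log2 fold change in the knockout was 0.03 (limma, adjusted p = 0.301). The differences for Cdkn2c and Ccne2 missed the threshold under 7 and 6 of 14 alternatives. The 2 experiments were normalised separately and share no library, and the length of the first activation is not given in the sources used here, so the experiment and the kind of perturbation cannot be told apart in these differences. The median difference over all genes was 0.05 and over the members -0.28.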

How the results depend on the processing

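With 2 libraries a group, low genes such as Cdkn2c (42 to 133 reads) limit what can be called. Of 430 recomputed log2 values of the members, 393 kept direction and call, 28 lost the call, 9 gained it and none reversed. Cdkn1a, Ccne1 and Cdk4 kept their calls in both experiments under every setting. With DESeq2, 3 members were higher in the knockout, and 2846 genes were higher and 2660 lower. Without the filter on low values, 2 members had a lower effect in the knockout than with anti-IL-2. Leaving out 1 library gave 2 to 3 members higher and 1 to 2 lower in the knockout, with 3212 to 4103 genes higher and 2787 to 3193 lower, and 6 to 7 members higher and 2 to 3 lower with anti-IL-2, with 3360 to 4361 genes higher and 3018 to 4124 lower. The members whose effects differed were then 1 to 2 higher and 2 to 4 lower. Upper-quartile scaling shifted the median of all genes by -0.08 in the knockout and -0.05 with anti-IL-2. With the replicate number as a block, 5 members were higher and 2 lower in the knockout, and 4881 genes were higher and 4197 lower. Deviations of same-numbered libraries correlated at r = 0.01 over 15415 genes. This value rests on a single difference per group and cannot exclude a pairing. What the replicate numbers stand for is not given in the sources used here. No paired analysis was possible for anti-IL-2 because its columns carry no numbers. The cause of these shifts was not tested.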
